A study of Mus musculus with 8 samples.

Results

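Respiratory chain genes of LT-HSC, the long-term hematopoietic stem cells, of aged mice were described in 8 single-cell RNA libraries, 4 of cells sorted as Dlk1+ and 4 of cells sorted as Dlk1-. Members were taken by gene name, as every row of the tables whose symbol starts like a subunit of NADH dehydrogenase (Nduf), succinate dehydrogenase (Sdh), the cytochrome bc1 complex (Uqcr), cytochrome c oxidase (Cox4 to Cox8) or ATP synthase (Atp5), or like a protein-coding gene of the mitochondrial genome (mt-Nd, mt-Cytb, mt-Co, mt-Atp). This gave 92 of 18174 genes, 79 encoded in the nucleus and 13 in the mitochondrion. By name, 36 nuclear members belong to complex I, 4 to complex II, 8 to complex III, 14 to complex IV and 17 to complex V, and the mitochondrial genome adds 7, 0, 1, 3 and 2. A few names go beyond the subunits of their complex. Atp5sl carries an ATP synthase name but encodes a complex I assembly factor, Ndufa4 is now counted with complex IV, and Cox7a2l helps to join complexes into supercomplexes.

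All cells came from untreated, wildtype male C57BL/6J mice aged 18 months, bought from JAX. Marrow pooled from several bones and depleted of lineage-positive cells was sorted for Lin-CD150+CD48-CD34-Kit+Sca1+ cells that were in addition Dlk1+ or Dlk1-, where Dlk1 is a surface protein related to the Notch ligands. The mCEL-Seq2 protocol gave each well a cell barcode and tagged each captured polyadenylated RNA molecule with a unique molecular identifier (UMI) near its 3′ end, and 96 wells made 1 library. Replicates 1 and 2 of both sorts were on plate 5 and replicates 3 and 4 on plate 6. No animal is named for any library, so p-values measure the spread between libraries, which may be technical.

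The chain passes electrons from NADH through complexes I, III and IV, or from succinate through complexes II, III and IV, to oxygen, and complex V uses the proton gradient so formed to make ATP. Some membrane subunits of complexes I, III, IV and V are transcribed inside the mitochondrion, and all other subunits in the nucleus. Both genomes must therefore contribute to each of these complexes, while complex II is made by nuclear genes alone. Quiescent HSC are known for relying much on glycolysis and for keeping mitochondrial activity low, although they hold many mitochondria.

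The 10 barcode numbers left out all lie among barcodes 1 to 96, so they removed wells of the Dlk1+ libraries alone. This left 86 barcodes in each Dlk1+ library and 96 in each Dlk1- library. Of these, 541 had at least 1000 transcripts and were used as cells. There were 86, 27, 26 and 81 in Dlk1+ replicates 1 to 4 and 96, 36, 95 and 94 in Dlk1- replicates 1 to 4. Summed transcripts per library ran from 39073 in Dlk1+ replicate 3 to 517559 in Dlk1- replicate 1. Dlk1+ replicate 3 stood apart: its median of 1300 transcripts per cell compares with 3421 to 5584 in the others. Over the genes with transcripts in every library, its median correlation with the other libraries was 0.69. That correlation was 0.83 for Dlk1+ replicate 2 and 0.90 to 0.92 for the remaining 6. All 12 HSC markers had UMIs, and their summed level in CPM, the counts scaled to a common library size, was 2393 ± 339 for Dlk1+ and 2301 ± 35.04 for Dlk1- libraries (SD over 4 libraries each). The 7 T cell markers were at 0 in all libraries, but other lists were not. Cd34 RNA, of a protein excluded by the sort, was at 45.9 to 76.1 CPM except for 0 in Dlk1+ replicate 3. Cd48 was at 9.58 CPM in Dlk1+ replicate 4 and 0 elsewhere. Summed CPM in Dlk1+ and Dlk1- libraries was 142.7 to 421.5 and 178.7 to 392.3 for megakaryocyte markers. It was 57.1 to 128.3 and 23.5 to 82.3 for erythroid, 0 to 31.3 and 17.3 to 37.6 for B cell markers. For cycling markers it was 351.2 to 827.5 and 117.6 to 658.5. Summed CPM of the 9 myeloid markers was 4495 in Dlk1+ replicate 4, where S100a8, S100a9, Mpo, Elane and Ctsg were all present, and 0 to 321.5 in the other libraries. Dlk1 itself was at 501, 609, 328 and 559 CPM in the Dlk1+ and 4.09, 51.7, 12.99 and 44.1 CPM in the Dlk1- libraries. The Dlk1+ libraries used the first 96 and the Dlk1- libraries the last 96 barcodes of the protocol, so barcode and sort cannot be told apart: 84 of 86 kept Dlk1+ barcodes and 96 of 96 kept Dlk1- barcodes occurred in at least 2 libraries of their sort, and 0 in both sorts.

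The 78 nuclear members with a position lay on 19 chromosomes in the GENCODE M21 annotation of GRCm38, with 3 on the X chromosome, and the 13 mitochondrial members lay on chrM. On chrM, mt-Atp8 and mt-Atp6, both of complex V, share 43 bases (chrM:7927-7969, plus strand), and mt-Nd4l and mt-Nd4 share 7 (chrM:10167-10173). These pairs are made as joint messenger RNAs, so a read in the shared stretch belongs to both. The UMI tag sits near the 3′ end of a message, so these counts do not separate the members of a joint message. The stretch of mt-Atp8 and mt-Atp6 is shown with the start codon of mt-Atp6 and the stop codon of mt-Atp8 in capitals.
mt-Atp8/mt-Atp6 overlap: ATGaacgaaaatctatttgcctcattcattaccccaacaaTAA
Only mt-Nd6 (chrM:13552-14070) is encoded on the minus strand.

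All 79 nuclear members matched RefSeq, 76 by symbol and 3 by synonym, and 67 had a promoter in the RefSeq table (GRCm38.p6), 73 promoters in all. The 250 bases before each start were searched on both strands for 3 motifs named for factors known to act on respiratory chain genes. The core of the NRF1 motif (GCATGCGC) was in 8 of 73 member promoters (10.96%) and in 741 of 32851 promoters of all genes (2.26%). The core of the ETS motif that NRF2/GABP binds (CCGGAAG) was in 12 of 73 (16.4%) and 2269 of 32851 (6.91%), and a YY1 core (AAGATGGC) in 2 of 73 (2.74%) and 514 of 32851. In all, 19 of 73 member promoters (26.03%) and 10.2% of all promoters held at least 1 of them. These are matches of letters in a fixed window, not measured binding. The promoters below are those with a match among the most abundant nuclear member of each complex, Uqcrh for complex III and Atp5g2 for complex V, and that of Sdhd, the complex II gene with the lowest fold change described further on. Capitals mark the matches: the ETS core on the other strand in Uqcrh and Sdhd, and an NRF1 core on each strand, overlapping, in Atp5g2. Each runs 5′ to 3′ on the gene's strand, which is minus for all of them, from chr4:116075071-116075320 (Uqcrh), chr15:102671048-102671297 (Atp5g2) and chr9:50603850-50604099 (Sdhd).
Uqcrh promoter: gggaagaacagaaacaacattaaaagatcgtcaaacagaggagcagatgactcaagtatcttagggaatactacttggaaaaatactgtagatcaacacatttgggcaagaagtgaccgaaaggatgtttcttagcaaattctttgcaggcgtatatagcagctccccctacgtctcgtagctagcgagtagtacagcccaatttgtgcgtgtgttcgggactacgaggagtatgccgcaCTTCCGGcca
Atp5g2 promoter: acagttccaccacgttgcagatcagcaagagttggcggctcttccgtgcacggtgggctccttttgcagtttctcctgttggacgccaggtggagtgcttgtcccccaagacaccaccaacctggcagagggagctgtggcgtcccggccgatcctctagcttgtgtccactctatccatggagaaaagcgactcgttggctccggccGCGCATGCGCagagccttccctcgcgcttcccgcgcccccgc
Sdhd promoter: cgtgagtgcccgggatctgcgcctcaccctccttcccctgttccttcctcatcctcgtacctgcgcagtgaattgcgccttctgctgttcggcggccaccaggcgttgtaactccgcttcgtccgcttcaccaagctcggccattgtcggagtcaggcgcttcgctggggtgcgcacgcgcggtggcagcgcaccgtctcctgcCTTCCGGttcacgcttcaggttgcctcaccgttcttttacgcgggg
The promoters printed for Atp5g2 and Uqcrh belong to genes whose levels overlapped between the sorts, given below with the other members.

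The first question was how a cell divides its messenger RNA between the mitochondrial and the nuclear part of the chain. In both sorts the 13 mitochondrial genes gave about 6% of a cell's UMIs and the 79 nuclear genes under 1%. The library median of the mitochondrial share was 6.55, 5.54, 7.31 and 6.33% in Dlk1+ replicates 1 to 4 and 6.75, 5.88, 6.80 and 6.36% in Dlk1- replicates 1 to 4. The Dlk1+ range enclosed the Dlk1- range, at 6.43 ± 0.731% against 6.45 ± 0.427% (SD, n = 4 each), and the difference of -0.0164 percentage points had a two-sided exact permutation p of 0.971 over the 70 assignments of the libraries. Leaving out 1 library at a time gave differences from -0.310 (without Dlk1+ replicate 3) to 0.282 (without Dlk1+ replicate 2).

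The nuclear share was 0.535, 0.830, 0.878 and 0.797% in Dlk1+ and 0.704, 0.733, 0.743 and 0.858% in Dlk1- libraries. Dlk1+ libraries were both the lowest (replicate 1) and the highest (replicate 3), around the same mean of 0.760 ± 0.154% and 0.760 ± 0.0679% (SD, n = 4 each, exact permutation p = 1). Dlk1+ replicate 1 was also the library with the largest share of satellite-like transcripts, 28.1% of its total, against 9.28 to 23.6% in the others. With these genes left out of a cell's total, the difference in nuclear share was 0.0184 percentage points.

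The balance, log2 of mitochondrial over nuclear UMIs per cell with 1 added to each, was 3.48, 2.56, 2.81 and 2.98 in Dlk1+ and 3.18, 3.01, 3.16 and 2.88 in Dlk1- libraries. The group means of 2.96 ± 0.39 and 3.06 ± 0.14 correspond to 7.76 and 8.31 mitochondrial UMIs for each nuclear one. The Dlk1+ libraries enclosed all 4 Dlk1- libraries, and the difference of -0.10 was smaller than the spread between Dlk1+ libraries (exact permutation p = 0.629, Benjamini-Hochberg adjusted over the 3 measures per cell p = 1). It was 0.03 without Dlk1+ replicate 2 and 0.17 without Dlk1+ replicates 2 and 3, so its direction turned. The 4 Dlk1- libraries were closer together than the 4 Dlk1+ libraries in all 3 measures, and the plot of these measures for every cell shows the same ranking of library medians. Neither sort was set apart from the other in any of them.

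**Figure D1:**
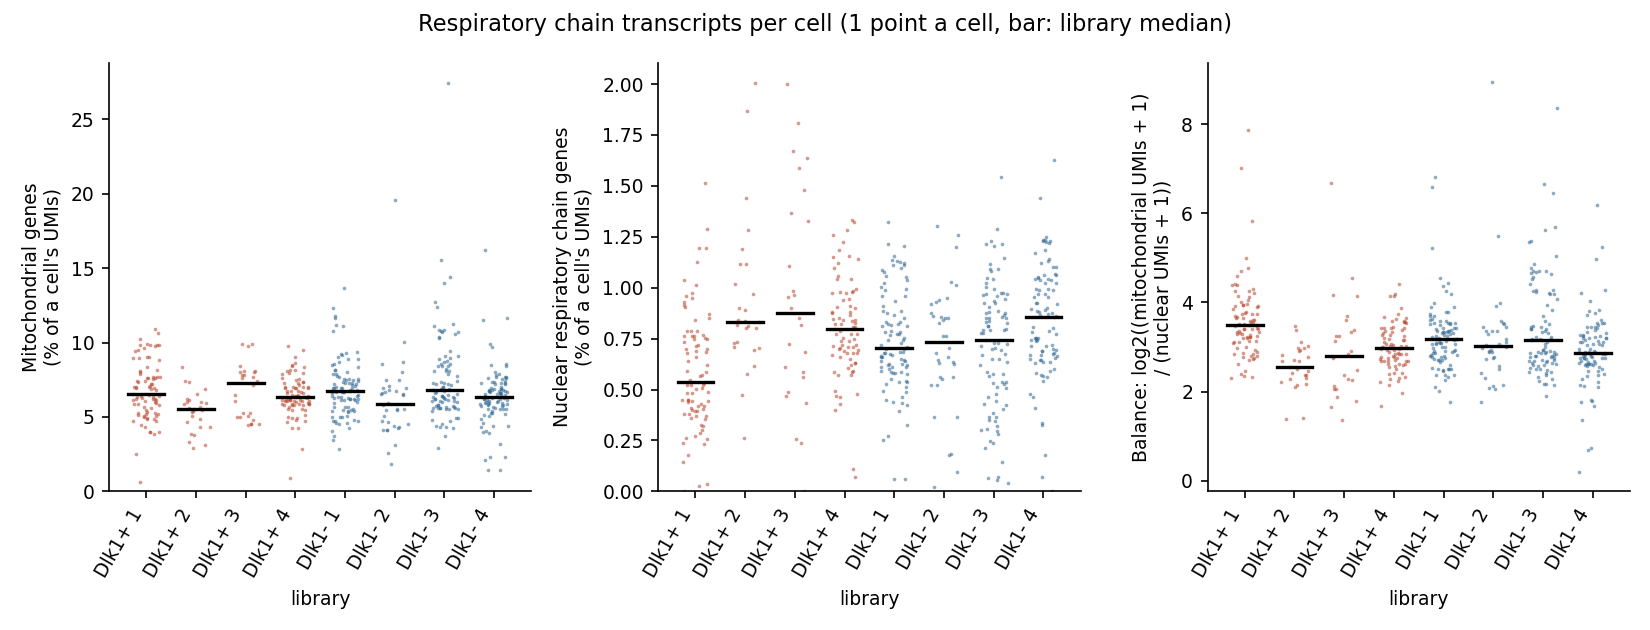
Mitochondrial share, nuclear share (both in % of a cell's UMIs) and the log2 balance for each of 541 cells by library, Dlk1+ in red and Dlk1- in blue, with the library median as a black bar. The medians of the Dlk1+ libraries lie on both sides of those of the Dlk1- libraries, from 2.56 to 3.48 for the balance.

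Single cells within a library ranged more widely than the library medians did. This range includes the counting error of cells with few nuclear UMIs, whose part was not tested. The balance of single cells ran from 1.68 to 4.42 in Dlk1+ replicate 4, the narrowest of the libraries with over 80 cells. In Dlk1- replicate 2 it ran from 1.77 to 8.93. The 8.93 was 1 cell with 978 mitochondrial UMIs and 1 nuclear UMI, so it depends on the 1 added to each. The next highest cell of that library was at 5.49, on 2 nuclear UMIs. Part of this width came with depth. In all 7 libraries with cells both of 2000 to 5000 and of over 5000 transcripts, the deeper cells had a lower mitochondrial share, a higher nuclear share and so a lower ratio. In Dlk1- replicate 1 the pooled ratio was 10.4 in the shallower and 7.40 in the deeper class, in Dlk1- replicate 4 it was 8.36 and 6.82, and in Dlk1+ replicate 4 it was 8.84 and 6.13. Across the cells of a library, which share its preparation, the rank correlation of the mitochondrial share with depth ran from -0.52 (Dlk1- replicate 1, 96 cells) to -0.17 (Dlk1- replicate 4, 94 cells), and that of the nuclear share from 0.15 (Dlk1+ replicate 1, 86 cells) to 0.47 (Dlk1- replicate 2, 36 cells). The nuclear share was lower in cells with a larger share of satellite-like transcripts in every library, with rank correlations of -0.76 to -0.47. For the mitochondrial share they ran from -0.73 (Dlk1+ replicate 2) to -0.04 (Dlk1- replicate 3). All are shares of the same cell total, so a larger satellite-like share lowers the others in part by construction. When each cell was thinned to 2000 UMIs, a median of 10.5, 14, 19 and 13 nuclear members was seen per cell in Dlk1+ libraries (82, 25, 4 and 79 cells) and 12, 12, 12 and 14 in Dlk1- libraries (93, 34, 92 and 88 cells), with 18, 21, 9.5 and 26 and 24, 26, 26 and 28 before thinning. Apart from Dlk1+ replicate 3, of which only 4 cells could be thinned, the sorts overlapped.

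Gene by gene, no respiratory chain gene was called between the sorts. Of 5666 genes that passed a filter on low counts, limma-voom with Benjamini-Hochberg adjustment over all of them called 2 at a false discovery rate of 0.05 (0.0353%), Dlk1 (log2 fold change 4.804) and Timp3 (2.41), both higher in Dlk1+. The 88 members that passed, all 13 mitochondrial and 75 nuclear ones, gave 0 calls, and 1 (Sdhd) with libraries weighted by quality. At an unadjusted p below 0.05, 1 member was higher and 3 were lower in Dlk1+, where 2.26% and 4.25% of all tested genes were. Of the 88, 47 had a fold change below 0, with a median log2 fold change of -0.05; of all tested genes 55.2% did, with a median of -0.04. CPM ranges of the sorts did not overlap for 2 members, Sdhd and Ndufs8, both lower in Dlk1+, against 4.94% of all tested genes in either direction. These counts are near the background of all genes. Of the 88 tested members 64 reached the minimum of 23.5 CPM in all 8 libraries, and 0 did so in libraries of a single sort.

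**Figure D2:**
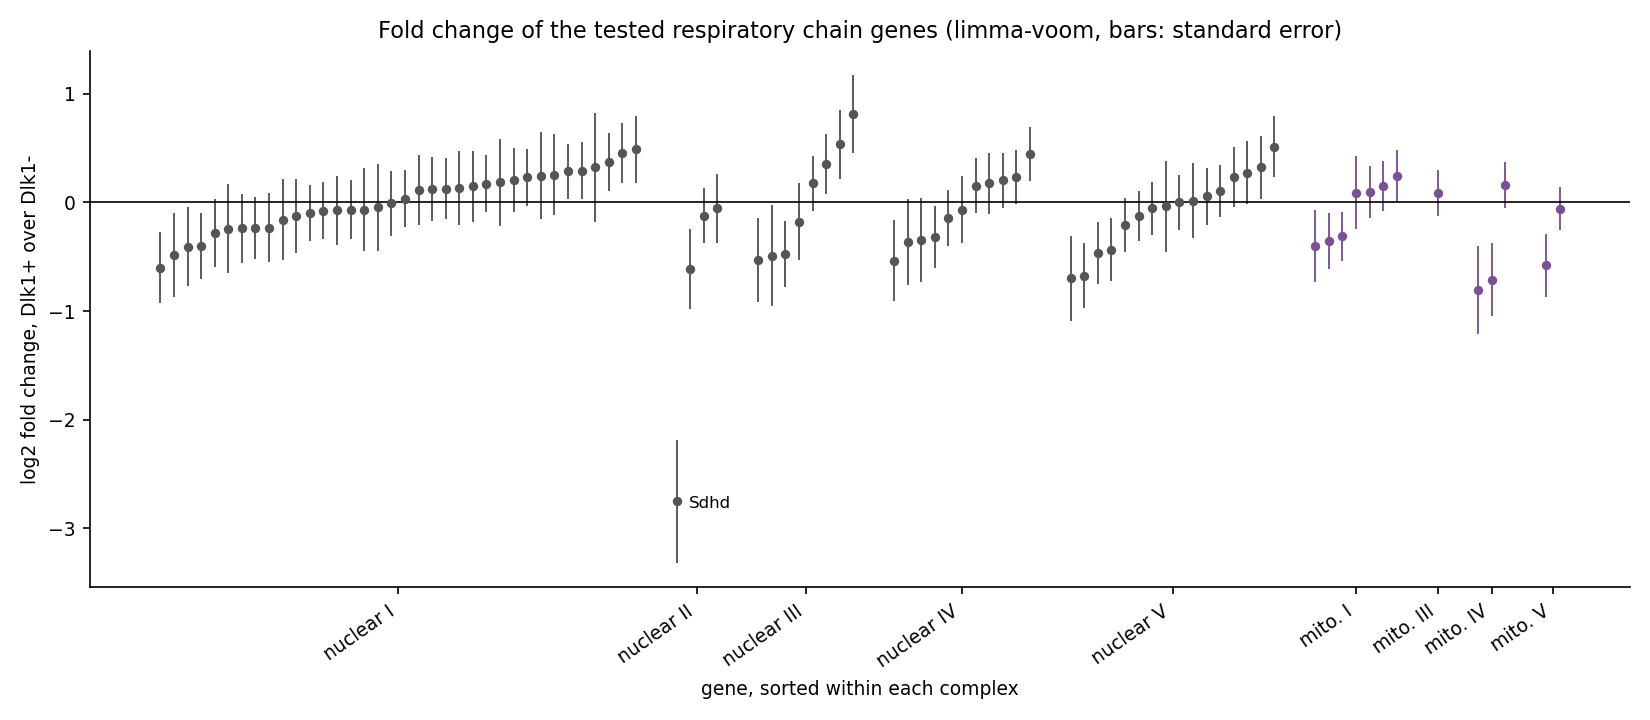
Log2 fold change of Dlk1+ over Dlk1- for the 88 tested members, sorted within each complex and genome of origin, with standard errors from limma-voom. All members lie between -0.80 and 0.82 except Sdhd at -2.75.

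Complex I, which takes electrons from NADH, has the most members. Its 36 nuclear genes summed to 2125, 2711, 2646 and 2342 CPM in Dlk1+ and 2362, 2352, 2351 and 2098 CPM in Dlk1- libraries. All 36 were tested, 18 with a fold change above and 18 below 0, with a median of 0.02. The sums overlapped and differed by 0.10 on the log2 scale (exact permutation p = 0.286, adjusted over the 9 complex sums p = 0.643). Ndufa12, an accessory subunit of the hydrophilic arm and the most abundant of them, was at 106.5, 104.6, 492 and 132.1 CPM in Dlk1+ and between 140.7 and 155.2 CPM in the 4 Dlk1- libraries. The value of 492 CPM came from 21 UMIs in Dlk1+ replicate 3, the shallowest library; the 3 other Dlk1+ libraries were below all Dlk1- libraries, and the log2 fold change was -0.07 (SE 0.31). Ndufa6, an accessory subunit at the base of the same arm, was at 115.9, 228, 117.1 and 130.2 CPM against 126.7, 141.1, 108.3 and 128.6 CPM (log2 fold change 0.17, SE 0.26), with the high value in Dlk1+ replicate 2.

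Among the members at the ends of the complex I list, Ndufs8, a subunit that carries iron-sulfur clusters near the quinone site, was at 21.9, 28.5, 23.4 and 36.4 CPM in Dlk1+ (7, 3, 1 and 19 UMIs) and 61.3, 37.6, 41.1 and 45.9 CPM in Dlk1- libraries (30, 8, 19 and 25 UMIs). Every Dlk1+ library was below every Dlk1- library, but the log2 fold change of -0.60 (SE 0.32) did not pass the test (adjusted p = 0.766 by limma-voom). At the other end were Ndufa11, a membrane arm subunit, at 43.9, 76.1, 93.7 and 45.96 CPM against 32.7, 51.7, 38.97 and 34.9 CPM (log2 fold change 0.49, SE 0.31), and Ndufs3, a core subunit, at 75.2, 104.6, 70.3 and 67.03 CPM against 44.95, 61.2, 69.3 and 53.3 CPM (0.45, SE 0.28). For both, the Dlk1+ mean was higher but the ranges of the sorts overlapped, and neither passed the test (adjusted p = 0.808 and 0.791 by limma-voom). 

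Complex II, succinate dehydrogenase, links the chain to the TCA cycle and is the one complex without a mitochondrial gene. Its 4 genes summed to 201, 219, 258 and 220 CPM in Dlk1+ and 286, 296, 260 and 298 CPM in Dlk1- libraries. The sums did not overlap, though by a narrow margin between Dlk1+ replicate 3 and Dlk1- replicate 3, and the log2 difference was -0.35 (exact permutation p = 0.0286, the smallest that 70 assignments allow; adjusted over the 9 complex sums p = 0.257). The 9 sums together therefore gave no call. The small unadjusted p of complex II depended on the processing. By the same exact permutation it was 0.171 (log2 difference -0.33) with CPM scaled by library totals alone. With the 10 barcodes kept it was 0.143 (-0.27). The separation rested on Sdhd: without it the other 3 genes summed to 201, 219, 258 and 193.4 CPM against 229, 259, 212 and 257 CPM, which overlapped (log2 difference -0.14, exact permutation p = 0.286).

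Sdhd encodes the small membrane anchor of complex II and lies at chr9:50596357-50603812 on the minus strand of GRCm38. It was listed at 0 in Dlk1+ replicates 1, 2 and 3 and at 26.8 CPM (14 UMIs) in Dlk1+ replicate 4, and at 57.2, 37.6, 47.6 and 40.4 CPM (28, 8, 22 and 22 UMIs) in the Dlk1- libraries. Every Dlk1+ library was below every Dlk1- library, and the gene had no row at all in the tables of Dlk1+ replicates 1 to 3, with 0 UMIs over all their barcodes. At the pooled Dlk1- rate of 48.5 CPM (here of UMIs, without TMM scaling), 17.8, 4.84 and 1.87 UMIs would have stood in those 3 libraries. The 0 in replicate 1 allows up to 8.16 CPM (3 counts of its total), below the exact lower bound of each Dlk1- library (15.8 to 37.5 CPM, 95% Poisson intervals for counting error alone). The limit of 30.09 CPM in replicate 2 is below the lower bound of Dlk1- replicate 1 (37.45 CPM) but not below those of the other Dlk1- libraries, and the limit of 77.95 CPM in replicate 3 is below none. Dlk1+ replicate 4, at 31.09 CPM of UMIs without TMM scaling, had a 95% Poisson interval of 17 to 52.16 CPM. This overlapped the interval of every Dlk1- library, so that library was not apart from them beyond counting error. A UMI of Sdhd was seen in 25, 16.7, 22.1 and 18.1% of cells in the Dlk1- libraries and in 16.05% of the 81 cells of Dlk1+ replicate 4.

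The log2 fold change of Sdhd was -2.75 (SE 0.56), the lowest of all 5666 tested genes, with an unadjusted p of 0.000115 (limma-voom, adjusted p = 0.217), so it was not called. Since 3 libraries are at 0, the size of this fitted value depends on the offset of 0.5 that voom adds and is no bound. Without Dlk1+ replicate 4 it was called, as 1 of 19 genes (-3.41, adjusted p = 0.00833), but this leaves out the only Dlk1+ library with the gene. Sdhd then passed the filter through Dlk1- libraries alone and was set against a group at 0, so that call is no support for a difference. It was also called with libraries weighted by quality (-3.08, adjusted p = 0.0339), and the adjusted p was 0.569 without Dlk1+ replicate 1. Sdhd was the only 1 of the 5666 tested genes with no UMI in Dlk1+ replicates 1 to 3. The filter asked for the CPM minimum in 4 or more libraries, so such a gene could pass mainly through Dlk1- libraries. Sdhd reached the minimum in 4 Dlk1- libraries and 1 Dlk1+ library. Its rarity among tested genes is therefore partly set by the filter and is no support for a difference. Dlk1+ replicate 4, the one Dlk1+ library with Sdhd, was also the one with the highest myeloid sum, 4495 CPM, and the one in which Mpo, Elane and Ctsg were detected. Prtn3, another of the 9 myeloid markers, was also in Dlk1+ replicates 1 and 2 and in all Dlk1- libraries. Lyz2 and Csf1r of the same markers were at 0 in all libraries. The 14 UMIs of Sdhd in Dlk1+ replicate 4 lay in 13 cells. The largest cell of that library held 36327 of its 450302 UMIs, and the spread of the myeloid transcripts over cells was not read. Whether Sdhd and the myeloid transcripts are linked was not tested.

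The other 3 members of complex II showed no such pattern. Sdha, the flavoprotein that oxidizes succinate, was at 109.7, 123.7, 211 and 118.7 CPM against 124.6, 164.6, 123.4 and 139.6 CPM (log2 fold change -0.12, SE 0.25), with the highest value in Dlk1+ replicate 3 on 9 UMIs. Sdhb, the iron-sulfur subunit, was at 43.9, 47.6, 46.8 and 28.7 CPM against 44.95, 51.7, 34.6 and 34.9 CPM (-0.05, SE 0.32). Sdhc, which with Sdhd anchors the enzyme in the inner membrane, was at 47.01, 47.6, 0 and 45.96 CPM against 59.3, 42.3, 54.1 and 82.7 CPM (-0.61, SE 0.37, adjusted p = 0.791 by limma-voom). Its ranges overlapped, and the 0 in Dlk1+ replicate 3 stands beside a library total of 38488 UMIs.

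**Figure D3:**
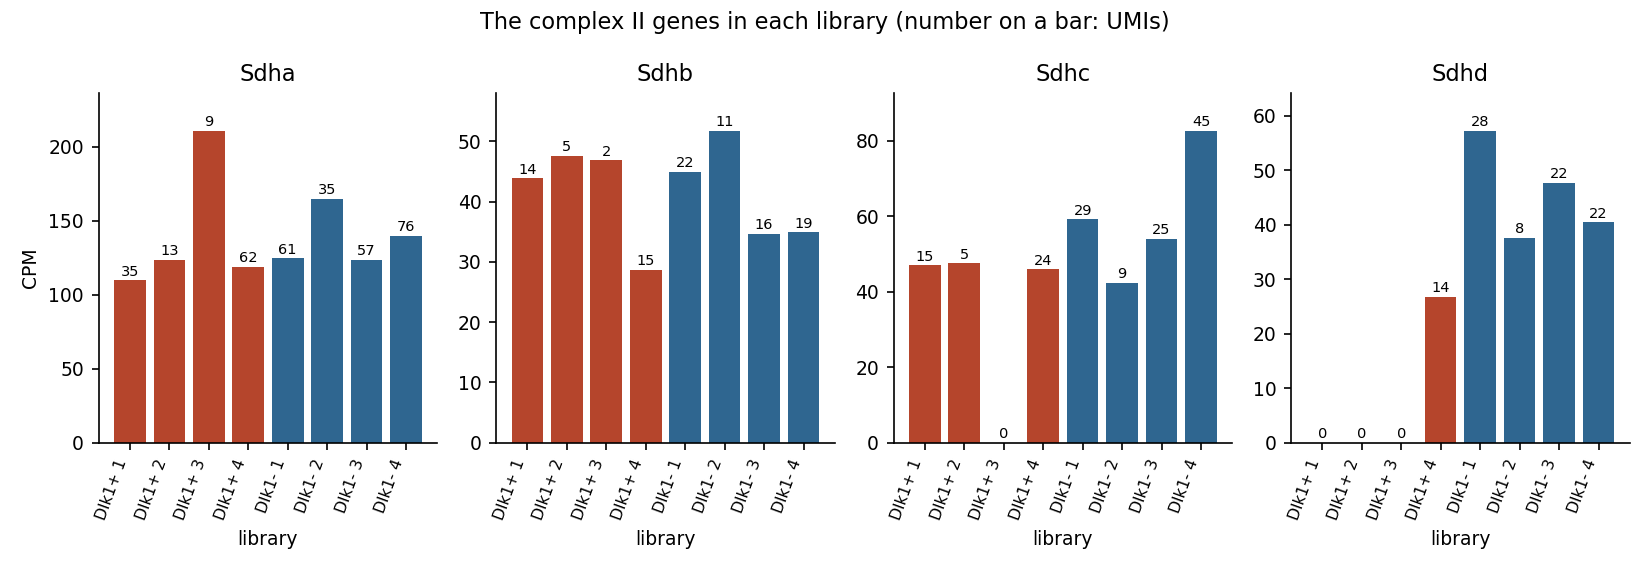
CPM of the 4 complex II genes in each library, Dlk1+ in red and Dlk1- in blue, with the number of UMIs on each bar. Sdhd has 0 UMIs in Dlk1+ replicates 1 to 3 and 8 to 28 in the Dlk1- libraries, while Sdha and Sdhb overlap between the sorts.

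Complex III, which passes electrons from ubiquinol to cytochrome c, had nuclear sums of 664, 913, 866 and 730 CPM in Dlk1+ and 684.5, 706, 652 and 746 CPM in Dlk1- libraries (log2 difference 0.18, exact permutation p = 0.229, adjusted p = 0.643). Of its 8 genes 4 had a fold change above and 4 below 0. Uqcrh, the hinge protein that binds near cytochrome c1, was at 222.5, 304, 258 and 211 CPM against 227, 159.9, 201 and 290.2 CPM (log2 fold change 0.18, SE 0.25), with ranges that overlapped, although 2 Dlk1- libraries were below every Dlk1+ library. Uqcrq, a small ubiquinone-binding subunit, had the highest fold change of all members, 0.82 (SE 0.36, unadjusted p = 0.0345, adjusted p = 0.707 by limma-voom). It was at 103.4, 152.2, 328 and 107.2 CPM in Dlk1+ and 81.7, 122.3, 93.1 and 38.6 CPM in Dlk1- libraries: the highest value was in Dlk1+ replicate 3 (14 UMIs) and the lowest in Dlk1- replicate 4, and 2 Dlk1+ libraries lay below Dlk1- replicate 2. Uqcr10, a small subunit beside cytochrome c1, was at 72.1, 85.6, 187.3 and 47.9 CPM against 51.1, 47.04, 36.8 and 55.1 CPM (log2 fold change 0.53, SE 0.32, adjusted p = 0.791 by limma-voom). Again Dlk1+ replicate 3 was highest, here on 8 UMIs, and Dlk1+ replicate 4 fell among the Dlk1- libraries.

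Complex IV reduces oxygen to water. Its 14 nuclear genes summed to 1799, 2521, 2084 and 1953 CPM in Dlk1+ and 1947, 2013, 1927 and 1901 CPM in Dlk1- libraries. The Dlk1- libraries lay inside the Dlk1+ range (log2 difference 0.09, exact permutation p = 0.543, adjusted p = 0.804). Of 11 tested members 5 were above and 6 below 0. Cox8a, a small accessory subunit, was at 291, 580.2, 585 and 343 CPM in Dlk1+ against 358, 367, 351 and 367 CPM in Dlk1- libraries (log2 fold change 0.20, SE 0.25). It was high in Dlk1+ replicates 2 and 3 and low in replicates 1 and 4. Cox7a2l was at 323, 428, 562 and 264 CPM against 266, 268, 260 and 266 CPM (0.45, SE 0.25, adjusted p = 0.766 by limma-voom). Its 4 Dlk1- values were nearly equal, with an SD of 3.60 CPM, and Dlk1+ replicate 4 lay among them.

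The tissue isoforms of complex IV were read as a check on cell type. Cox6a2, the heart and muscle form, had 1 of 478 UMIs of Cox6a1 and Cox6a2 together (in Dlk1- replicate 1), and Cox7b2, known from testis, had 0 beside 280 of Cox7b, which allows a share of up to 1.35% (Wilson interval, counting error alone). Cox6b2, the testis form of the subunit that joins 2 copies of the enzyme, was present: 2, 2, 2 and 9 UMIs in Dlk1+ and 10, 7, 14 and 5 UMIs in Dlk1- libraries, 51 of 488 UMIs of Cox6b1 and Cox6b2 together (10.5%, 95% Wilson interval 8.04 to 13.5%). The share ran from 3.92 to 10.98% in Dlk1+ and from 5.44 to 21.9% in Dlk1- libraries, with intervals that overlapped. These isoforms and Atp5s, with 45 UMIs, are the 4 members that did not pass the filter on low counts.

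Complex V, ATP synthase, had nuclear sums of 2109, 3110, 3231 and 2344 CPM in Dlk1+ and 2554, 2742, 2429 and 2423 CPM in Dlk1- libraries, again with Dlk1+ replicates 2 and 3 above and replicates 1 and 4 below every Dlk1- library (log2 difference 0.07, exact permutation p = 0.714, adjusted p = 0.804). Of 16 tested members 8 were above and 8 below 0. Atp5g2, one of 3 genes for the c subunit of the rotor ring, was at 414, 476, 983.5 and 337 CPM against 429, 456, 409 and 343.5 CPM (log2 fold change 0.24, SE 0.28), and Atp5a1, the alpha subunit of the catalytic head, at 210, 504, 304 and 287 CPM against 292, 306, 323 and 272 CPM (0.06, SE 0.26). For both the Dlk1+ range enclosed the Dlk1- range. The 3 c subunit genes encode the same mature protein. Of their summed CPM Atp5g2 made up 61.4, 60.98, 56.8 and 55% in Dlk1+ and 57.2, 55.8, 57.98 and 53.4% in Dlk1- libraries, so Atp5g2 was the main source in all 8.

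Atp5c1, the gamma subunit that forms the central stalk, had the highest fold change of complex V. It was at 172.4, 352, 398 and 162.8 CPM in Dlk1+ and 155.3, 164.6, 158.1 and 163.5 CPM in Dlk1- libraries (log2 fold change 0.51, SE 0.28, adjusted p = 0.766 by limma-voom). Dlk1+ replicates 2 and 3 were well above all Dlk1- libraries, and replicates 1 and 4 lay beside them. The lowest were Atp5j2, subunit f of the membrane part, at 31.3, 114.1, 0 and 65.1 CPM against 79.7, 56.5, 77.95 and 80.8 CPM (-0.70, SE 0.39), and Atp5j, coupling factor 6 of the outer stalk. Atp5j was at 56.4, 47.6, 23.4 and 86.2 CPM in Dlk1+ against 108.3, 84.7, 86.6 and 130.4 CPM in Dlk1- libraries (-0.67, SE 0.30, unadjusted p = 0.0373, adjusted p = 0.707 by limma-voom). Only Dlk1+ replicate 4 reached the Dlk1- range of Atp5j, above the lowest Dlk1- library.

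**Figure D4:**
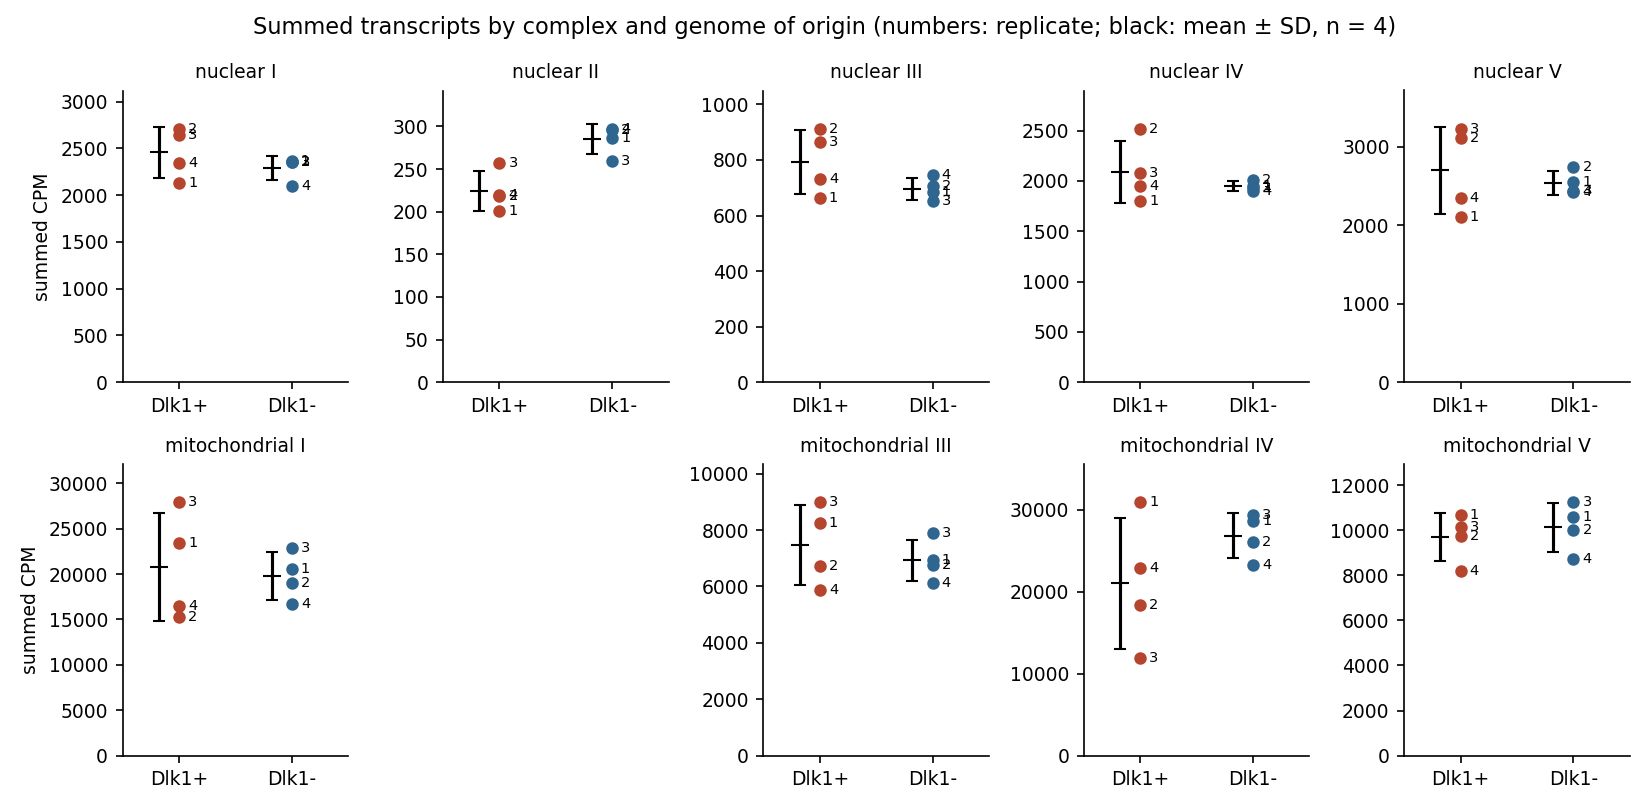
Summed CPM of the members by complex and genome of origin in each library, on axes from 0, with replicate numbers beside the points and mean ± SD in black (n = 4 each). Dlk1+ libraries spread more widely than Dlk1- libraries in 8 of the 9 sums, and the sorts are separate for nuclear complex II alone.

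The mitochondrial genome gave 166602 UMIs in the kept cells, against 20689 from all nuclear members. The sums by complex overlapped between the sorts. For complex I they were 23425, 15248, 27935 and 16462.5 CPM in Dlk1+ and 20577, 19046, 22886 and 16658 CPM in Dlk1- libraries, with overlapping ranges (exact permutation p = 0.914), for complex III 7458 ± 1418 and 6930 ± 727 CPM (p = 0.629 by the same exact test), and for complex V 9683 ± 1062 and 10131 ± 1080 CPM (SD, n = 4 each; exact permutation p = 0.6). Complex IV, with the 3 catalytic core subunits, had the largest difference of the 4: 30924, 18377, 11942 and 22823 CPM in Dlk1+ and 28597, 26036, 29291 and 23278 CPM in Dlk1- libraries (log2 difference -0.43, exact permutation p = 0.229, adjusted p = 0.643). Dlk1+ replicates 2, 3 and 4 were below all Dlk1- libraries and Dlk1+ replicate 1 above them.

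This difference came from mt-Co1 and mt-Co2 in a pair of libraries. mt-Co1, the subunit that holds the site of oxygen reduction, was at 13372, 6449, 1803 and 10087 CPM in Dlk1+ and 12189.9, 11002.5, 12474 and 9848 CPM in Dlk1- libraries. mt-Co2, which receives electrons from cytochrome c, was at 11144, 5926, 2295 and 8017 CPM against 10557, 9648, 10878 and 8654 CPM. Both were lowest in Dlk1+ replicate 3 and next lowest in replicate 2, while Dlk1+ replicates 1 and 4 were near the Dlk1- libraries. The log2 fold changes were -0.80 (SE 0.40, adjusted p = 0.763) and -0.71 (SE 0.33, adjusted p = 0.748) by limma-voom. Without Dlk1+ replicate 3 they were -0.18 and -0.24, and without Dlk1+ replicates 2 and 3 they were 0.02 and -0.08, so the fold change of mt-Co1 turned. The third core subunit, mt-Co3, was not low: it was at 6409, 6002, 7844 and 4719 CPM in Dlk1+, highest in replicate 3, and at 5850, 5386, 5939 and 4776 CPM in Dlk1- libraries (log2 fold change 0.16, SE 0.21).

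As a share of a library's mitochondrial UMIs, which does not depend on scaling, mt-Co1 took 18.2, 12.9, 3.06 and 18.8% in Dlk1+ and 18.2, 17.7, 17.5 and 17.9% in Dlk1- libraries. In Dlk1+ replicate 3 the share was 77 of 2516 UMIs (95% Wilson interval 2.46 to 3.81%) and in replicate 2 675 of 5245 (11.99 to 13.8%), both apart from the 17.5 to 18.8% of the other 6 libraries beyond counting error. mt-Co2 showed the same: 3.90% in Dlk1+ replicate 3 (3.21 to 4.72%), 11.8% in replicate 2 (10.99 to 12.7%) and 15 to 15.8% in the other 6. The low share was spread over cells. Per cell, the median share of mt-Co1 was 2.87% in Dlk1+ replicate 3, with 11.5% as the highest of 26 cells, 12.8% in replicate 2 and 17.5 to 19.1% in the others. It was also low at each depth in Dlk1+ replicate 3, at 3.60, 3.14 and 2.76% for barcodes of 200 to 1000, 1000 to 2000 and 2000 to 5000 transcripts.

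In the same libraries other mitochondrial genes had larger shares. The 13 shares sum to the whole, so lower shares of mt-Co1 and mt-Co2 raise the others by construction. In Dlk1+ replicate 2 the CPM of mt-Nd1 (3348), mt-Nd4 (4823) and mt-Cytb (6715) lay inside the Dlk1- ranges, and mt-Co3 (6002) just above. In Dlk1+ replicate 3 the CPM of mt-Nd1 (6182), mt-Nd4 (8945), mt-Cytb (8992) and mt-Co3 (7844) lay above every Dlk1- library. The highest Dlk1- values were 4415, 6351, 7886 and 5939 CPM, so these genes were high there in CPM as well. In Dlk1+ replicate 3, mt-Nd1 took 10.5%, against 5.54 to 6.21% in the 6 libraries other than Dlk1+ replicates 2 and 3. There mt-Nd4 took 15.1% against 8.11 to 8.999%, mt-Cytb 15.2% against 10.4 to 11.3%, and mt-Co3 13.3% against 8.34 to 8.86%. In Dlk1+ replicate 2 the shares were 6.69, 9.63, 13.4 and 11.99% for these genes, and mt-Atp6 had 19.3% against 14.3 to 15.8% in the 6. mt-Nd4l, with 0.515%, and mt-Nd5, with 3.81%, were lower there than in any other library. These 2 libraries have the fewest cells, and Dlk1+ replicate 3 the lowest depth; their part in the shifted make-up was not tested. Over the 4 libraries of each sort, 0 of the 13 shares differed after adjustment (smallest exact permutation p = 0.0286, for mt-Co2 and mt-Atp8, adjusted over the 13 shares p = 0.149).

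**Figure D5:**
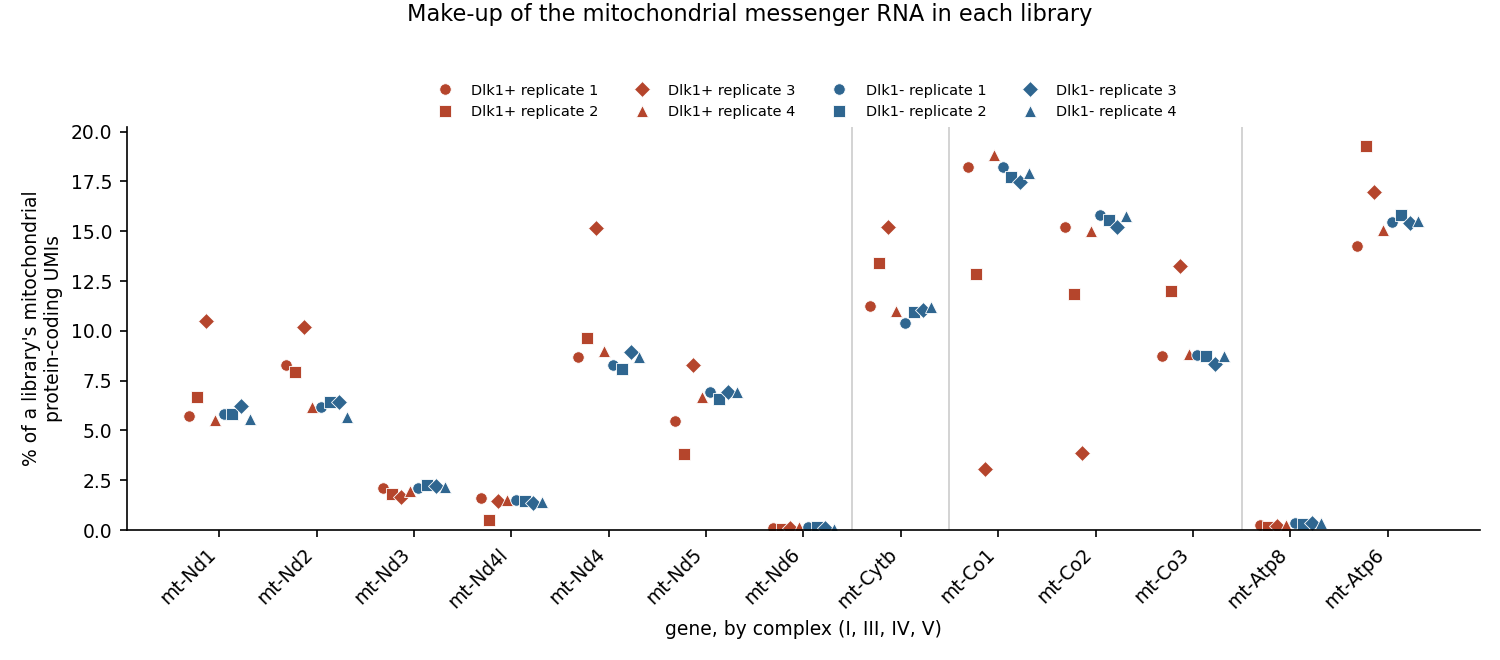
Share of each of the 13 mitochondrial genes in a library's mitochondrial protein-coding UMIs (%), by complex, with Dlk1+ in red, Dlk1- in blue and a marker shape per replicate. The 4 Dlk1- libraries and Dlk1+ replicates 1 and 4 lie close together for mt-Co1 and mt-Co2 but not for mt-Nd2 and mt-Nd5 (8.28 and 5.475% in Dlk1+ replicate 1), while Dlk1+ replicates 2 and 3 are low for mt-Co1 and mt-Co2 and high for mt-Cytb and mt-Co3.

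The remaining mitochondrial genes overlapped between the sorts. Those of complex I, which form its proton-pumping membrane arm, had log2 fold changes from -0.40 (mt-Nd4l, SE 0.33) and -0.35 (mt-Nd5, SE 0.26) through -0.31 (mt-Nd3, SE 0.22), 0.09 (mt-Nd6, SE 0.34), 0.10 (mt-Nd1, SE 0.24) and 0.16 (mt-Nd4, SE 0.23) to 0.25 (mt-Nd2, SE 0.24). mt-Nd6, the one gene of the minus strand, had 28, 4, 3 and 43 UMIs in Dlk1+ and 47, 21, 34 and 22 UMIs in Dlk1- libraries, at 69.6 ± 22.3 and 77.2 ± 27 CPM (SD, n = 4 each), far fewer than any plus-strand gene of complex I. These are captured polyadenylated molecules, and whether they follow the level of the mt-Nd6 message relative to other genes was not tested. mt-Cytb, the core of complex III, was at 8248, 6715, 8992 and 5876 CPM in Dlk1+ and 6939, 6769, 7886 and 6126 CPM in Dlk1- libraries (log2 fold change 0.09, SE 0.21). Of the ATP synthase pair, mt-Atp6 was at 9550 ± 1053 and 9921 ± 1055 CPM (SD, n = 4 each; log2 fold change -0.06, SE 0.20) and mt-Atp8 at 201, 66.6, 117.1 and 147.5 CPM against 231, 178.7, 242.5 and 189.2 CPM (-0.58, SE 0.29, adjusted p = 0.763 by limma-voom). Only Dlk1+ replicate 1 reached the Dlk1- range of mt-Atp8. The joint message described above limits how UMIs are split between the pair. Over the 13 mitochondrial genes 6 fold changes were above and 7 below 0, with a median of -0.06, beside 35 above and 40 below with a median of -0.04 for the 75 tested nuclear members.

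Genes around the chain were read from lists of related functions, and 0 of their genes were called by limma-voom. Of 6 tested subunits and partners outside the naming rule, 3 were above and 3 below 0. Atpif1, the inhibitor of ATP synthase and the most abundant, was at 196.5 ± 89.2 and 150.8 ± 11.7 CPM (SD, n = 4 each; log2 fold change 0.15, SE 0.26). Cycs, the soluble carrier cytochrome c, was named after its values were seen, as the only gene of that list whose ranges did not overlap: 72.1, 114.1, 163.9 and 99.6 CPM in Dlk1+ above 57.2, 65.9, 47.6 and 58.8 CPM in Dlk1- libraries (log2 fold change 0.77, SE 0.28, unadjusted p = 0.0124, adjusted p = 0.694 by limma-voom). Assembly factors gave 2 tested genes for complex I, both below 0, and 12 for complexes II to V, 6 above and 6 below; the most abundant were Ndufaf7 (log2 fold change -0.22, SE 0.36) and Cox14 (-0.33, SE 0.31). 

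Of 7 tested genes for mitochondrial transcription and DNA maintenance, 1 was above and 6 below 0, with a median log2 fold change of -0.09. At an unadjusted p below 0.05, 2 of these 7 genes were lower in Dlk1+, as were 2 of 18 TCA cycle genes, 1 of 5 nuclear regulators and 1 of 2 complex I assembly genes, beside 4.25% of all tested genes; in the other direction it was 1 of the 6 subunits outside the rule. Lrpprc, which stabilizes mitochondrial messenger RNA, was the most abundant and was at 74.9 ± 43.9 and 59.7 ± 21.6 CPM (SD, n = 4 each; log2 fold change -0.07, SE 0.33). Of 5 tested nuclear regulators, 1 was above and 4 below 0. Myc, a growth regulator that also acts on mitochondrial genes and the most abundant of this list, was at 15.7, 28.5, 23.4 and 114.9 CPM in Dlk1+ and 130.8, 159.9, 190.5 and 106.5 CPM in Dlk1- libraries (log2 fold change -1.61, SE 0.45, unadjusted p = 0.00228, adjusted p = 0.560 by limma-voom). As with Sdhd, Dlk1+ replicate 4 was the Dlk1+ library nearest to the Dlk1- libraries, here inside their range. Ndufaf4 for assembly, Gabpb1, a subunit of the factor that binds the ETS motif, and Suclg2 of the TCA cycle also had ranges that did not overlap. They were lower in Dlk1+ and were named after their values were seen, and none was called. With Cycs, these were 1 of 2, 1 of 5, 1 of 18 and 1 of 6 tested genes of their lists. In the lists of complex II to V assembly (12 tested), mitochondrial transcription (7) and mitophagy (9) there were 0. Of all tested genes 4.94% had such ranges in either direction, so no pattern is read from these genes.

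The TCA cycle and pyruvate dehydrogenase genes, which feed electrons into the chain, had 18 tested members, 10 above and 8 below 0, with a median of 0.10. Mdh2, the malate dehydrogenase of the mitochondrial matrix, was at 94.01, 133.2, 421.5 and 105.3 CPM against 100.1, 98.8, 99.6 and 88.2 CPM (log2 fold change 0.39, SE 0.31), high in Dlk1+ replicate 3. Of 9 tested genes of mitophagy and mitochondrial dynamics, 4 were above and 5 below 0, and Bnip3l, a mitophagy receptor, was at 142.6 ± 14.7 and 160.9 ± 18.1 CPM (SD, n = 4 each; -0.12, SE 0.24). Of the 2 mitochondrial ribosomal RNA genes, mt-Rnr2, the large subunit rRNA, was at 52042, 24208, 54559 and 42144 CPM in Dlk1+ and 34400, 27574, 48778 and 39347 CPM in Dlk1- libraries (log2 fold change 0.17, SE 0.26). Replicate 2 was the lowest of each sort, and the ranges overlapped. With both rRNA genes counted among the mitochondrial ones, the difference in the mitochondrial share became 0.562 percentage points (exact permutation p = 0.686).

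How alike the libraries were in these genes was compared last, as a description. Over the 13 mitochondrial genes, the median Pearson correlation of log2(CPM + 10) with the other libraries was 0.99 or above in the 4 Dlk1- libraries and in Dlk1+ replicates 1 and 4, 0.979 in Dlk1+ replicate 2 and 0.891 in Dlk1+ replicate 3. Over the 75 tested nuclear members it was 0.893 to 0.902 in the Dlk1- libraries, 0.925 in Dlk1+ replicate 4, 0.852 in replicate 1, 0.814 in replicate 2 and 0.599 in replicate 3. The correlations are across genes, which are not independent, and the libraries with few nuclear UMIs (996 and 388 in Dlk1+ replicates 2 and 3) were the ones least like the rest in both sets.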

How the data were processed

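Tables of 8 mCEL-Seq2 libraries were used, with 192 barcodes each. Their values are expected (estimated) transcript counts deposited by the authors, in which UMI counts were corrected for UMIs drawn more than once: the values are whole UMI counts (within 1e-06) under the correction for 4096 UMIs. Reads were aligned with BWA 0.6.2-r126 and the build was mm10, per the submitters' processing notes; handling of strand, multiple matches and gene copies is not given in the sources used here, so members with near-identical copies or overlapping neighbours are uncertain. A UMI tags a molecule once at its 3′ end, so CPM was not divided by length.

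Each library's own 96 barcodes (1 to 96 for Dlk1+, 97 to 192 for Dlk1-) were used without barcodes 17, 20 to 24 and 29 to 32, with at least 1000 transcripts per cell and no doublet caller. Estimated transcripts were summed per library and rounded, since cells are not replicates. Limma 3.58.1 (voom, TMM scaling, R 4.3.3) was fitted to all genes of at least 23.5 CPM (a count of 10 in the median library) in 4 or more libraries and 15 transcripts in total, with Benjamini-Hochberg adjustment at a false discovery rate of 0.05. EdgeR's quasi-likelihood test was the planned main test and limma-voom its planned substitute for tables whose unit code cannot check, as here; edgeR and DESeq2 were therefore not run. Shares, the balance and complex sums were compared over libraries by two-sided exact permutation, whose smallest p is 0.0286. Intervals and limits of 3 counts cover counting error only. Scripts were tested on simulated data; Python 3.11.15, numpy 2.4.6, pandas 2.3.3 and scipy 1.17.1 were used.

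The members and gene lists were chosen with earlier results of these data known. Genes were named by rule: all mitochondrial members, the 5 tested nuclear members with the largest fold change in each direction, the 2 most abundant nuclear members of each complex, tissue isoforms with a UMI, and the most abundant gene of each other list; Sdhb, Cycs, Ndufaf4, Gabpb1, Suclg2 and Atp5s were added after their values were seen. Alternatives were library totals, no filter, minima of 500 and 2000 transcripts, replicate and plate blocks, satellite-like genes or the 10 barcodes treated otherwise, and each library left out. Quality weights, leaving out Dlk1+ replicates 2 and 3 together, and leaving Sdhd out of complex II were added after seeing the data. No value column was left unmapped (0).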

Additional observations from a re-analysis of the deposited data

Results flagged for a closer look

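In 90 groups of 4 libraries, 8 held a library far from the other 3 by Dixon's criterion, which chance meets in about 1 in 20 groups; 3 of the 8 were Dlk1+ replicate 3. These were Ndufa12 at 491.7 CPM (others up to 132.1), Sdha at 210.7 CPM (others up to 123.7) and Sdhc at 0 CPM (others from 45.96). Sdhd was at 26.8 CPM in Dlk1+ replicate 4 and at 0 in the other Dlk1+ libraries. Ndufa6 was at 228.3 CPM in Dlk1+ replicate 2, against at most 130.2 in the others. Among Dlk1- libraries, the nuclear complex I genes summed to 2098 CPM in replicate 4 (others from 2351), Atp5j2 was at 56.5 CPM in replicate 2 (others from 77.95), and Cox6a2 was at 2.04 CPM, a single UMI, in replicate 1.

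The 10 barcode numbers left out were also read on the side that the Dlk1- libraries did not use. There, 40 barcodes held 2589 mitochondrial and 227 nuclear respiratory chain UMIs, a ratio of 11.4. The other 344 unused barcodes of these libraries held 5.46 mitochondrial and 0.334 nuclear UMIs per barcode, against 64.7 and 5.675 on the 40 and 336 and 40.9 in the 321 cells.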

How the results depend on the processing

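No respiratory chain gene was called except Sdhd, without Dlk1+ replicate 4 and with quality weights (1 gene each; leave-one-out range 0 to 1). The first of these left Sdhd at 0 in every remaining Dlk1+ library, with the filter passed through Dlk1- alone, and supports nothing. Over all genes 2 were called, 1 with the replicate block and with a minimum of 2000 transcripts, 4 with the 10 barcodes kept, 5 with quality weights, 5 without Dlk1+ replicates 2 and 3, and 1 to 19 with a library left out; no filter gave 3. Of 31 named genes 16 kept their direction throughout, as did 3 of 9 complex sums. Depth limits all values of Dlk1+ replicates 2 and 3. The cause of the changes below was not tested.

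Replicate numbers may pair the libraries, though weakly. Same-number correlations were 0.0411 to 0.0678, and each Dlk1+ library correlated best with its own number (4 of 4). No pair of unlike numbers was above 0.00542. The tests without pairing stayed the main ones. With the replicate block the pairing gave p = 0.875 for the mitochondrial share, 1 for the nuclear share and 0.625 for the balance (exact sign-flip permutation, smallest 0.125), Sdhd -2.34 (adjusted p = 0.823 by limma) and Ndufa12 0.10.

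Log2 values that changed sign were, with a minimum of 500, mt-Atp6 0.052, the mitochondrial complex V sum 0.039 and the balance 0.018. With a minimum of 2000 they were mt-Co3 -0.085, mt-Cytb -0.14, mt-Nd1 -0.057, mt-Nd2 -0.11, mt-Nd4 -0.067, mt-Nd6 -0.030 and Atp5a1 -0.073, and the sums of nuclear complexes I (-0.056), IV (-0.11) and V (-0.053) and mitochondrial complexes I (-0.24) and III (-0.14). With no filter they were mt-Cytb -0.034, mt-Nd1 -0.055 and Atp5a1 -0.072. With quality weights they were mt-Nd1 -0.0038 and Atp5a1 -0.068. Without Dlk1+ replicates 2 and 3 they were mt-Co1 0.022, mt-Co3 -0.0062, mt-Cytb -0.0048, mt-Nd1 -0.088, mt-Nd4l 0.067, Uqcrh -0.032, Cox8a -0.17, Atp5g2 -0.12, Atp5a1 -0.24, the balance 0.17 and the sums of nuclear complexes I (-0.031), IV (-0.049) and V (-0.18). With rRNA genes added the balance difference was 0.082. In percentage points, the mitochondrial share differed by 0.0998 (minimum 500), 0.0754 (10 barcodes kept) and 0.562 (rRNA added), and the nuclear share by -0.0683, -0.00541 and, without Dlk1+ replicates 2 and 3, -0.0940.

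With a library left out, differences ran from -0.310 to 0.282 for the mitochondrial share, -0.0394 to 0.0751 for the nuclear share and -0.27 to 0.034 for the balance. For genes they ran from -0.13 to 0.025 (mt-Atp6), -0.013 to 0.20 (mt-Cytb), -0.10 to 0.25 (mt-Nd1), -0.020 to 0.27 (mt-Nd4), -0.23 to 0.24 (mt-Nd6), -0.29 to 0.12 (Ndufa12), -0.055 to 0.31 (Ndufa6), -0.0075 to 0.39 (Cox8a), -0.039 to 0.46 (Atp5g2) and -0.24 to 0.26 (Atp5a1). For sums they ran from -0.00041 to 0.15, -0.050 to 0.15 and -0.055 to 0.17 (nuclear I, IV, V) and -0.12 to 0.13, -0.0034 to 0.20 and -0.14 to 0.012 (mitochondrial I, III, V). EdgeR's and DESeq2's count tests were not run.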
